A study of Homo sapiens with 9 samples.

Results

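The Frizzled receptors are the 10 human genes FZD1 to FZD10. All probe sets that the platform annotation assigns to these symbols were taken, which gave 21 of the 54613 non-control probe sets of the array, for all 10 genes. Over the array 19775 genes have a probe set of their own, 9 of the 10 Frizzled genes among them. The 3 probe sets of FZD8 are annotated jointly to FZD8 and the microRNA gene MIR4683, which lies inside FZD8 on the same strand. They are called FZD8/MIR4683 here, because the annotation does not assign them to either gene alone. PC3 cells are an established human prostate cancer line that came from a bone metastasis. Their total RNA was measured after 48 h on 9 Affymetrix U133 Plus 2.0 arrays. The groups were PC3 with osteoblasts of Sost knockout mice (OB SostKO, 2 arrays), PC3 with wild type mouse osteoblasts and 100 ng/ml recombinant human DKK1 (OB WT + rhDKK1, 2 arrays), PC3 with wild type osteoblasts and 100 ng/ml recombinant human SOST (OB WT + rhSOST, 3 arrays), and PC3 cells alone (untreated PC3, 2 arrays). The osteoblasts came from the skull bones of newborn pups, and the paper describes co-cultures in which they did not touch the PC3 cells. No array held PC3 cells with wild type osteoblasts and no added protein, so an effect of these osteoblasts and an effect of the protein cannot be told apart. All 3 comparisons with untreated PC3 also share the same 2 untreated arrays.

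Frizzled proteins are receptors with 7 transmembrane spans whose outer cysteine-rich domain binds Wnt ligands. Together with LRP5 or LRP6 they recruit Dishevelled and stabilize β-catenin, and with other partners they act on cell polarity and calcium. DKK1 and sclerostin, the product of SOST, bind LRP5 and LRP6 rather than the Frizzled proteins. By sequence the family falls into FZD5 with FZD8, FZD4 with FZD9 and FZD10, FZD1 with FZD2 and FZD7, and FZD3 with FZD6, and the results follow this order.

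The start regions of FZD8 and FZD4 are shown because these genes had probe sets that differed from untreated PC3 in OB WT + rhSOST. The microRNA is shown because the FZD8 probe sets are also annotated to it. Sequences are from RefSeq on GRCh38.p14, and the promoters of 5 of the 10 genes were examined (FZD1, FZD4, FZD5, FZD8 and FZD9). The promoter lines give the 250 bases before the gene start, 5′ to 3′, at chr10:35642297-35642546 for FZD8 and chr11:86955396-86955645 for FZD4, both on the minus strand. Capitals mark GC boxes (GGGCGG on either strand, with overlapping matches merged). In the microRNA, at chr10:35641181-35641203 on the minus strand, capitals mark the seed, bases 2 to 8.
FZD8: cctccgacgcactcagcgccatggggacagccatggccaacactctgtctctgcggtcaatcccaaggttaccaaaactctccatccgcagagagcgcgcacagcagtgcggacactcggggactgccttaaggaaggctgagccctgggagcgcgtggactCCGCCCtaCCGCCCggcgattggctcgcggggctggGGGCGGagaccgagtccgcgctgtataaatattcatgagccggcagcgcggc
FZD4: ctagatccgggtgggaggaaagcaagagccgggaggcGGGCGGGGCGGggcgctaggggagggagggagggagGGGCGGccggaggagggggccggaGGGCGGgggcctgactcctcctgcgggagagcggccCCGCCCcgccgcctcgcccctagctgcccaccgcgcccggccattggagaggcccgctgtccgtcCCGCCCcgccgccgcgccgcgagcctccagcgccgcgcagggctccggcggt
hsa-miR-4683: uGGAGAUCcagugcucgcccgau

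FZD8 had 3 GC boxes and FZD4 had 6 in this window, FZD5 had 6, FZD9 had 2 and FZD1 had 1. A GC box was found in 42.6% of all 35116 promoters of the same length. On either strand the TCF/LEF core CTTTGA, the AP-1 motif TGANTCA and the E box CACGTG had 0 matches in these 5 windows, against 11.2%, 6.57% and 6.34% of all promoters. A match describes letters only and was not tested for binding.

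Values are RMA signals on the log2 scale. A probe set was tested if 2 or more arrays had it at or above their 40th percentile, which kept 33970 probe sets, and 18 of the 21 Frizzled probe sets for 9 of the 10 genes. The array medians lay between 5.45 and 5.52, and the epithelial genes KRT8, KRT18, KRT19, EPCAM and CDH1 were all at or above the 96.95th percentile on each array. Of the osteoblast genes with a probe set of their own, 6 of 9 had a kept probe set, with SP7, COL1A2 and DMP1 not kept and RUNX2 and COL1A1 the only ones above the 80th percentile on every array. Limma called 0 of these 6 in OB SostKO, in OB WT + rhDKK1 and in OB WT + rhSOST against untreated PC3, with 0, 1 and 1 at an unadjusted p under 0.05. Of the androgen-regulated prostate genes, KLK2, KLK3 and TMPRSS2 were kept, and 0 were called or had such a p. Of the 5 epithelial genes 0 were called, and 1, 0 and 0 had such a p. Of all kept probe sets, 18.9%, 19% and 20.9% had such a p in the same order of co-cultures. Limma called 0.901%, 1.03% and 2.66% of all kept probe sets as higher and 0.718%, 0.721% and 1.32% as lower. The 4-group fit was made with limma, an adjusted p (Benjamini-Hochberg over all kept probe sets) under 0.05 was a call, and precision is limited by how few arrays there are. Because RNA of a whole culture was measured, more RNA per cell and a larger share of cells holding it cannot be told apart. Quality controls moved with the groups. The poly-A controls averaged 6.65 ± 0.28 in the 7 co-culture arrays and 11.32 ± 0.48 in the 2 untreated arrays (SD). The 3′ minus 5′ difference of ACTB averaged 1.38 ± 0.33 in the co-culture arrays and 0.69 ± 0.27 in the untreated arrays (SD, n = 7 and n = 2). The hybridization controls averaged 10.44 and 11.01. Each of these differences had an exact two-sided permutation p of 0.0278, the smallest that 7 against 2 arrays allow, while the GAPDH difference averaged 0.20 and 0.19 (exact p = 0.917). Their part in the results below was not tested.

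FZD8/MIR4683 signal rose in all 3 co-cultures relative to untreated PC3 by about 1.5 to 1.6-fold, on 2 of its 3 probe sets. FZD8 is a receptor for Wnt ligands that act through β-catenin. FZD4, the receptor of norrin, and FZD2 rose in OB WT + rhSOST on 1 of 2 kept probe sets each, and neither passed when its probe sets were averaged. FZD3, FZD1 and one probe set of FZD5 had positive log2 fold changes that did not pass on single probe sets. When its probe sets were averaged, FZD3 passed in OB WT + rhDKK1 and in OB WT + rhSOST but not in OB SostKO. The pooled 7 co-culture arrays of FZD6, FZD7 and FZD9 overlapped the untreated arrays. Between the 3 co-cultures no Frizzled probe set passed.

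On 227405_s_at the FZD8/MIR4683 signal was 12.68 and 12.92 in OB SostKO, 12.92 and 12.73 in OB WT + rhDKK1, and 12.94, 12.79 and 12.71 in OB WT + rhSOST, against 12.06 and 12.16 in untreated PC3. The second probe set, 224325_at, gave 11.45 and 11.70 in OB SostKO, 11.61 and 11.60 in OB WT + rhDKK1, and 11.69, 11.72 and 11.63 in OB WT + rhSOST, against 11.07 and 10.95 in untreated PC3. On both, every co-culture array was above both untreated arrays, and the co-culture groups overlapped one another except that OB WT + rhDKK1 lay below OB WT + rhSOST on 224325_at. The log2 fold change on 227405_s_at was 0.69 ± 0.12 (SE) for OB SostKO (limma adjusted p = 0.039), 0.71 ± 0.12 for OB WT + rhDKK1 (adjusted p = 0.034) and 0.70 ± 0.11 for OB WT + rhSOST (adjusted p = 0.019). On 224325_at it was 0.57 ± 0.10 (adjusted p = 0.039), 0.60 ± 0.10 (adjusted p = 0.033) and 0.67 ± 0.09 (adjusted p = 0.012) in the same order of co-cultures. These are folds of 1.61, 1.64 and 1.63 on the first probe set and of 1.48, 1.51 and 1.59 on the second.

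The third FZD8/MIR4683 probe set, 216587_s_at, did not show the rise. It read 8.70 and 8.86 in OB SostKO, 9.07 and 8.66 in OB WT + rhDKK1, and 8.71, 8.48 and 8.81 in OB WT + rhSOST, against 8.66 and 8.51 in untreated PC3. Its largest log2 fold change was 0.28 (95% interval -0.09 to 0.65, OB WT + rhDKK1). Over the 9 arrays the first 2 probe sets had a Pearson r of 0.95 with each other and of 0.50 and 0.40 with the third, a description of probe sets that share RNA and arrays.

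The FZD8/MIR4683 calls depended on single arrays. Without one array at a time, the log2 fold changes on the first 2 probe sets stayed between 0.44 and 0.81 in the 3 comparisons. For OB SostKO both calls held only without OB WT + rhSOST array 3 (adjusted p = 0.027 and 0.031) and were lost without any of the other 8 arrays, with adjusted p between 0.056 and 0.192. For OB WT + rhDKK1 the call on 227405_s_at was lost without untreated array 1 (0.173) or 2 (0.090), rhDKK1 array 1 (0.229) or 2 (0.147), or rhSOST array 2 (0.074). The call on 224325_at was lost without the same arrays (adjusted p between 0.072 and 0.206) and without rhSOST array 1 (0.061). For OB WT + rhSOST the call on 227405_s_at was lost without untreated array 1 (0.136) or 2 (0.064) or rhSOST array 1 (0.053) or 2 (0.072), and that on 224325_at without untreated array 1 (0.069) or 2 (0.064) or rhSOST array 2 (0.058). Leaving out an array of a pair leaves a lone array that is assumed to vary like the other groups.

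**Figure D1:**
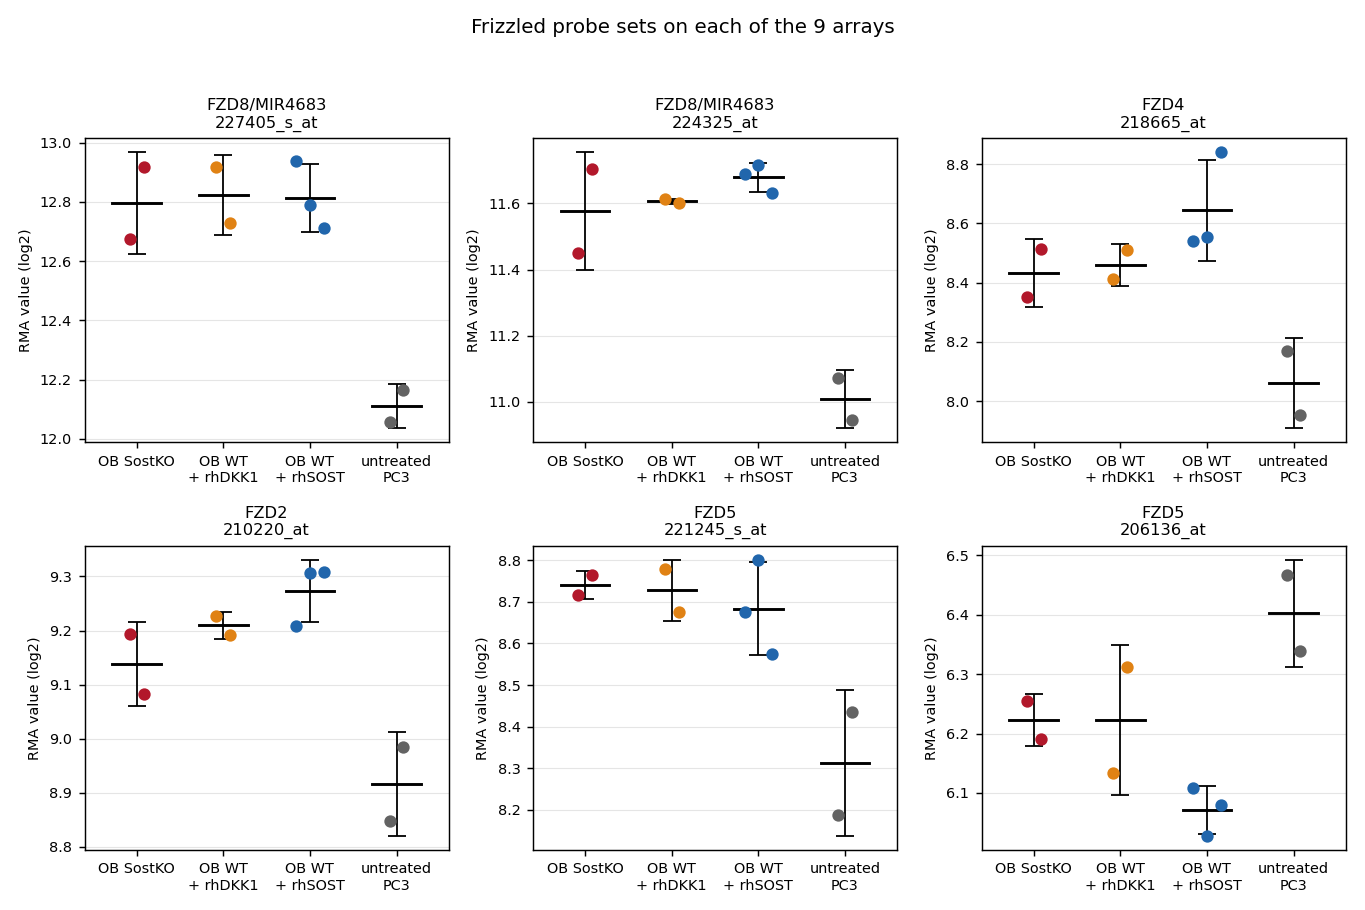
RMA value (log2, vertical axis, not starting at 0) of 6 Frizzled probe sets by group. Each point is 1 of the 9 arrays, the thick line is the group mean and the bar is 1 SD. The panels were chosen as the Frizzled probe sets called against untreated PC3, with both probe sets of FZD5 added. All 7 co-culture arrays lie above both untreated arrays in each panel except FZD5 206136_at, where all 7 lie below. Among all kept probe sets, 13.1% have all 7 above and 10.6% all 7 below. The other probe sets of FZD8/MIR4683, FZD4 and FZD2, not shown, overlap.

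FZD5, the closest relative of FZD8 and also a receptor for Wnt ligands, gave opposite signs on its 2 probe sets. On 221245_s_at it read 8.72 and 8.76 in OB SostKO, 8.78 and 8.68 in OB WT + rhDKK1, and 8.68, 8.80 and 8.58 in OB WT + rhSOST, against 8.19 and 8.44 in untreated PC3. On 206136_at it read 6.25 and 6.19 in OB SostKO, 6.13 and 6.31 in OB WT + rhDKK1, and 6.11, 6.03 and 6.08 in OB WT + rhSOST, against 6.47 and 6.34 in untreated PC3. The co-culture arrays thus lay wholly above the untreated arrays on the first and wholly below them on the second, and over the 9 arrays the 2 probe sets had r = -0.76. The log2 fold changes were 0.43, 0.42 and 0.37 on 221245_s_at for OB SostKO, for OB WT + rhDKK1 and for OB WT + rhSOST (limma adjusted p = 0.10, 0.11 and 0.088), and -0.18, -0.18 and -0.33 on 206136_at (adjusted p = 0.33, 0.33 and 0.070). No direction is given for FZD5.

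FZD4 acts with LRP5 or LRP6 as the receptor of norrin as well as of Wnt ligands. On 218665_at it read 8.35 and 8.51 in OB SostKO, 8.41 and 8.51 in OB WT + rhDKK1, and 8.54, 8.55 and 8.84 in OB WT + rhSOST, against 8.17 and 7.95 in untreated PC3. All co-culture arrays were above both untreated arrays, and the 3 OB WT + rhSOST arrays were above those of the other co-cultures. The log2 fold change was 0.58 ± 0.12 (SE) in OB WT + rhSOST (1.5-fold, limma adjusted p = 0.039), and the values in OB SostKO and OB WT + rhDKK1, 0.37 ± 0.13 and 0.40 ± 0.13, did not pass (adjusted p = 0.18 and 0.16). The difference itself was not past the threshold: OB SostKO minus OB WT + rhSOST was -0.21 (95% interval -0.49 to 0.06, adjusted p = 0.84) and OB WT + rhDKK1 minus OB WT + rhSOST was -0.18 (95% interval -0.46 to 0.09, adjusted p = 1). The FZD4 call held only without rhSOST array 3 (adjusted p = 0.045) and was lost without any of the other 8 arrays, at an adjusted p of 0.054 to 0.148. The dimmer FZD4 probe set 224337_s_at read 5.10 and 5.24 in OB SostKO, 5.46 and 5.35 in OB WT + rhDKK1, and 5.16, 5.20 and 5.38 in OB WT + rhSOST, against 5.28 and 4.57 in untreated PC3, where one untreated array was within the co-culture range and the other below it.

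FZD9 was dim, between the 39.96th and 44.75th percentiles of the arrays on 207639_at. It read 5.09 and 5.13 in OB SostKO, 4.88 and 4.88 in OB WT + rhDKK1, and 4.88, 4.87 and 4.85 in OB WT + rhSOST, against 5.05 and 4.88 in untreated PC3. Both OB SostKO arrays were above all other arrays, by 0.25 (95% interval 0.08 to 0.42) over OB WT + rhSOST and by 0.24 (95% interval 0.05 to 0.42) over OB WT + rhDKK1. Neither difference passed over all probe sets (limma adjusted p = 0.84 and 1). FZD10 was not kept, with values from 2.93 to 3.29 between the 5.55th and 12.5th percentiles of the arrays.

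**Figure D2:**
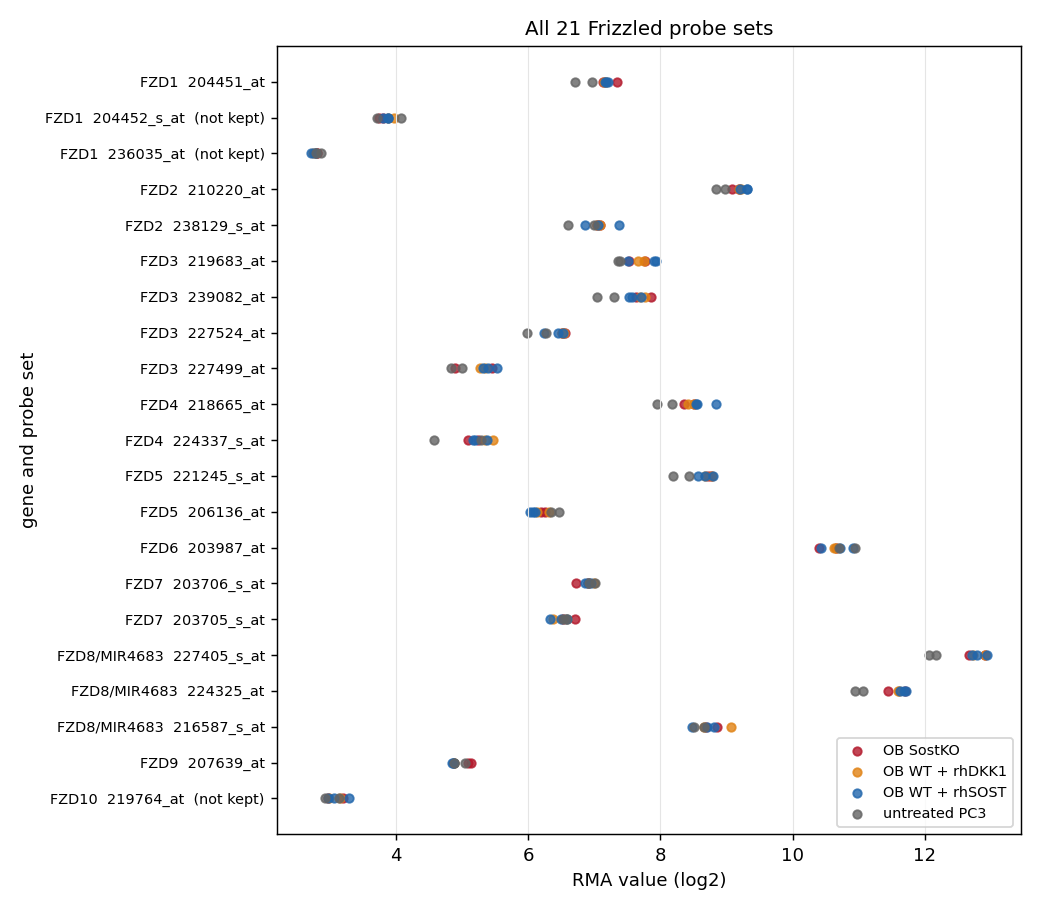
RMA value (log2, horizontal axis) of all 21 Frizzled probe sets, 1 per row, with a point for each of the 9 arrays coloured by group. Signals of different probe sets are not amounts of RNA that can be compared, so only points within a row are read against each other. The untreated points lie left of all co-culture points in 8 rows and right of them in 1 among the kept probe sets.

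FZD2, a receptor used by several Wnt ligands, read 9.19 and 9.08 in OB SostKO, 9.23 and 9.19 in OB WT + rhDKK1, and 9.21, 9.31 and 9.31 in OB WT + rhSOST, against 8.85 and 8.98 in untreated PC3 on 210220_at. All co-culture arrays were above untreated PC3, and the OB SostKO arrays were below those of OB WT + rhSOST. It passed in OB WT + rhSOST with a log2 fold change of 0.36 ± 0.08 (SE, 1.28-fold, limma adjusted p = 0.049), and had 0.22 and 0.29 in OB SostKO and OB WT + rhDKK1 (adjusted p = 0.22 and 0.13). The call was lost without any single one of the 9 arrays, at an adjusted p of 0.058 to 0.256. The other FZD2 probe set, 238129_s_at, had a log2 fold change of 0.27, 0.26 and 0.30 in OB SostKO, in OB WT + rhDKK1 and in OB WT + rhSOST, and its arrays overlapped, 6.85 to 7.38 in the co-cultures against 6.61 and 6.99 in untreated PC3.

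FZD1, which also takes part in β-catenin signaling, read 7.13 and 7.35 in OB SostKO, 7.18 and 7.14 in OB WT + rhDKK1, and 7.16, 7.21 and 7.18 in OB WT + rhSOST, against 6.71 and 6.97 in untreated PC3 on 204451_at. The untreated arrays were the lowest, but the log2 fold changes of 0.40, 0.32 and 0.34 did not pass (limma adjusted p = 0.12, 0.18 and 0.10). The other FZD1 probe sets, 204452_s_at and 236035_at, were not kept, with group means of 3.77 to 3.92 and 2.76 to 2.83.

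FZD7 is the third of this subfamily. On 203706_s_at it read 6.73 and 6.90 in OB SostKO, 7.0 and 6.91 in OB WT + rhDKK1, and 6.86, 6.91 and 6.95 in OB WT + rhSOST, against 6.93 and 7.01 in untreated PC3. Both OB SostKO arrays were below both untreated arrays there (log2 fold change -0.16, limma adjusted p = 0.39), and the arrays of the other co-cultures overlapped them. On 203705_s_at the co-culture arrays ran from 6.33 to 6.71 and the untreated arrays were 6.58 and 6.53. Over both probe sets and the 3 co-cultures, the 95% intervals of the log2 fold change reached down to -0.36 (203706_s_at) and up to 0.34 (203705_s_at), both in OB SostKO.

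FZD3, known for its part in planar cell polarity and axon guidance, had 4 kept probe sets, all with a positive log2 fold change in each co-culture. On 239082_at it read 7.87 and 7.64 in OB SostKO, 7.69 and 7.77 in OB WT + rhDKK1, and 7.57, 7.70 and 7.53 in OB WT + rhSOST, against 7.05 and 7.30 in untreated PC3. All co-culture arrays were above the untreated ones, with log2 fold changes of 0.58 ± 0.12, 0.55 ± 0.12 and 0.42 ± 0.11 (SE) that did not reach the threshold (limma adjusted p = 0.061, 0.064 and 0.076). On 219683_at the co-culture arrays, 7.50 to 7.94, were also above both untreated arrays, 7.38 and 7.35. The remaining probe sets, 227524_at and 227499_at, overlapped in part, 6.24 to 6.56 against 5.99 and 6.27 in untreated PC3 and 4.90 to 5.53 against 4.99 and 4.83 in untreated PC3. When the kept probe sets of a gene were averaged before the fit, FZD3 passed in OB WT + rhDKK1 (0.42 ± 0.09, adjusted p = 0.046) and in OB WT + rhSOST (0.41 ± 0.08, adjusted p = 0.030) and had 0.38 ± 0.09 in OB SostKO (adjusted p = 0.067). In that fit FZD8/MIR4683 passed in all 3 comparisons, at 0.48, 0.53 and 0.48 (adjusted p = 0.043, 0.030 and 0.023), and FZD4 and FZD2 did not pass in OB WT + rhSOST (adjusted p = 0.097 and 0.085).

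FZD6, the partner of FZD3 in polarity signaling, was bright, between the 92.75th and 94.81th percentiles of the arrays on 203987_at. It read 10.41 and 10.65 in OB SostKO, 10.65 and 10.62 in OB WT + rhDKK1, and 10.44, 10.71 and 10.91 in OB WT + rhSOST, against 10.70 and 10.94 in untreated PC3. The co-culture means were lower by sign, with log2 fold changes of -0.29, -0.18 and -0.14 that did not pass (limma adjusted p = 0.37, 0.57 and 0.66). Both OB SostKO and both OB WT + rhDKK1 arrays were below the untreated arrays, and the OB WT + rhSOST arrays overlapped them.

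**Figure D3:**
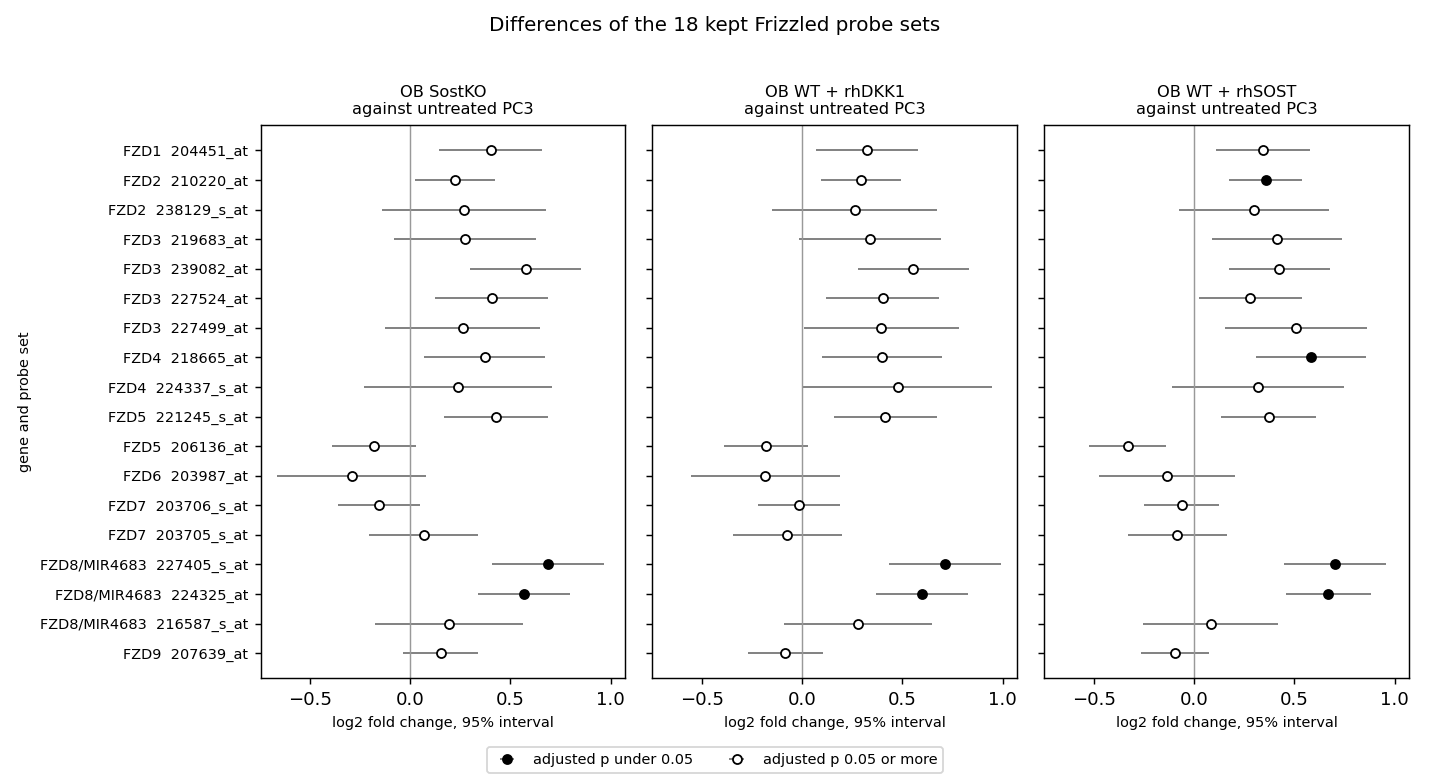
Log2 fold change (horizontal axis) of the 18 kept Frizzled probe sets in each co-culture against untreated PC3, with 95% intervals from the limma fit. Filled points have an adjusted p under 0.05: both brighter FZD8/MIR4683 probe sets in all 3 panels, and FZD4 218665_at and FZD2 210220_at in the OB WT + rhSOST panel.

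Over the family, 2 of 18 kept probe sets rose and 0 fell in OB SostKO, that is 11.1%, where 0.901% of all 33970 kept probe sets rose and 0.718% fell. OB WT + rhDKK1 also had 2 rises and 0 falls, where 1.03% of all kept probe sets rose and 0.721% fell. In OB WT + rhSOST 4 rose (22.2%) and 0 fell, where 2.66% of all rose and 1.32% fell. At an unadjusted p under 0.05, limma gave 8, 10 and 10 Frizzled probe sets with a higher signal in OB SostKO, in OB WT + rhDKK1 and in OB WT + rhSOST and 0, 0 and 1 with a lower signal. That is 44.4%, 55.6% and 61.1% of the 18, where 18.9%, 19% and 20.9% of all kept probe sets had such a p in either direction. The median log2 fold change of the 18 probe sets was 0.26, 0.33 and 0.33, against -0.00053, -0.0035 and 0.010 over all kept probe sets. The 7 co-culture arrays were all above both untreated arrays on 8 of the 18 (44.4%), which come from FZD1, FZD2, FZD3, FZD4, FZD5 and FZD8/MIR4683, where this held for 13.1% of all kept probe sets. They were all below on 1 (FZD5 206136_at), where this held for 10.6% of all. Probe sets of 1 gene share its RNA, so these counts are not of independent features.

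Tested over the 4 groups at once, 0 Frizzled probe sets passed limma's F test, where 0.812% of all kept probe sets did. The smallest adjusted p were 0.052 and 0.062, for 224325_at and 227405_s_at of FZD8/MIR4683.

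The direct comparisons ask whether the co-cultures that the study treats as invasive, OB SostKO and OB WT + rhDKK1, differ in their Frizzled signals from OB WT + rhSOST. They did not pass for any of the 18 probe sets: limma gave 0 calls for OB SostKO against OB WT + rhSOST, 0 for OB WT + rhDKK1 against OB WT + rhSOST and 0 for OB SostKO against OB WT + rhDKK1, as for all 33970 kept probe sets (0%). At an unadjusted p under 0.05 limma's counts were 1, 0 and 1, each time FZD9. That is 5.56%, 0% and 5.56% of the 18, where 3.43%, 2.33% and 0.854% of all kept probe sets had such a p. Tukey's comparisons gave 1, 0 and 1 unadjusted and 0 after adjustment. The shares of all kept probe sets under Tukey's test are not given here, so these counts have no background beside them. The 95% intervals of the 18 differences reached at most 0.60, 0.59 and 0.71 in size on the log2 scale. FZD8/MIR4683 on 227405_s_at differed by -0.02 (95% interval -0.27 to 0.24), 0.01 (-0.24 to 0.26) and -0.03 (-0.30 to 0.25) in these 3 comparisons.

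Of the Wnt ligands and norrin, 14 of 20 genes had a kept probe set, and the brightest was used for each gene. Limma called 1 of the 14 as lower in OB SostKO, 0 in OB WT + rhDKK1, and 1 as higher and 1 as lower in OB WT + rhSOST. Of all kept probe sets, 0.901% rose and 0.718% fell in OB SostKO, 1.03% and 0.721% in OB WT + rhDKK1, and 2.66% and 1.32% in OB WT + rhSOST. WNT10B, a ligand of β-catenin signaling, fell in OB SostKO by 0.50 on the log2 scale (limma adjusted p = 0.024) and in OB WT + rhSOST by 0.36 (adjusted p = 0.029), with -0.36 in OB WT + rhDKK1 (adjusted p = 0.054). Its arrays read 6.94 and 6.96 in OB SostKO, 7.11 and 7.09 in OB WT + rhDKK1, and 7.11, 7.05 and 7.14 in OB WT + rhSOST, against 7.46 and 7.46 in untreated PC3. NDP, which encodes norrin, the ligand of FZD4, rose in OB WT + rhSOST by 0.84 ± 0.17 (SE, adjusted p = 0.041), with 0.64 and 0.78 in OB SostKO and OB WT + rhDKK1 (adjusted p = 0.13 and 0.085). It read 5.22 and 5.82 in OB SostKO, 5.75 and 5.56 in OB WT + rhDKK1, and 5.65, 5.90 and 5.61 in OB WT + rhSOST, against 4.82 and 4.93 in untreated PC3. The other 12 ligands passed in none of the 3 comparisons, and the list's median log2 fold change was 0.05, -0.04 and 0.03.

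Of the co-receptors, 8 of 10 had a kept probe set, and limma called 1 of the 8, as higher in OB WT + rhSOST, where 2.66% of all kept probe sets rose. LRP6 pairs with Frizzled proteins to bind Wnt and is bound by DKK1 and sclerostin. It was read on the brightest of its 3 kept probe sets, and the others are not reported here. On that probe set LRP6 rose in OB WT + rhSOST by 0.42 ± 0.09 (SE, limma adjusted p = 0.046). It read 7.81 and 7.86 in OB SostKO, 7.96 and 8.01 in OB WT + rhDKK1, and 7.96, 8.12 and 8.24 in OB WT + rhSOST, against 7.67 and 7.69 in untreated PC3, and its log2 fold change was 0.16 and 0.30 in OB SostKO and OB WT + rhDKK1 (adjusted p = 0.44 and 0.17). The list's median was -0.13, -0.10 and 0.03.

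Among extracellular and secretory-route antagonists, 8 of 18 had a kept probe set. Limma called 1 of the 8 as lower in OB WT + rhDKK1, where 0.721% of all kept probe sets fell, and 1 as higher in OB WT + rhSOST, where 2.66% rose. SHISA2 and SHISA3 belong to a family first described in Xenopus as holding Frizzled proteins back in the endoplasmic reticulum. SHISA2 read 9.47 and 9.82 in OB SostKO, 9.59 and 9.54 in OB WT + rhDKK1, and 9.80, 9.80 and 9.72 in OB WT + rhSOST, against 10.20 and 10.28 in untreated PC3. It fell in OB WT + rhDKK1 by 0.67 (limma adjusted p = 0.035), with -0.59 and -0.47 in OB SostKO and OB WT + rhSOST (adjusted p = 0.052 and 0.052). SHISA3, measured by a probe set whose type (x_at) can also bind other transcripts, read 9.44 and 9.82 in OB SostKO, 9.56 and 9.52 in OB WT + rhDKK1, and 9.51, 9.72 and 9.69 in OB WT + rhSOST, against 8.92 and 8.99 in untreated PC3. It rose in OB WT + rhSOST by 0.68 ± 0.12 (SE, adjusted p = 0.026), with 0.67 and 0.58 in OB SostKO and OB WT + rhDKK1 (adjusted p = 0.053 and 0.072).

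**Figure D4:**
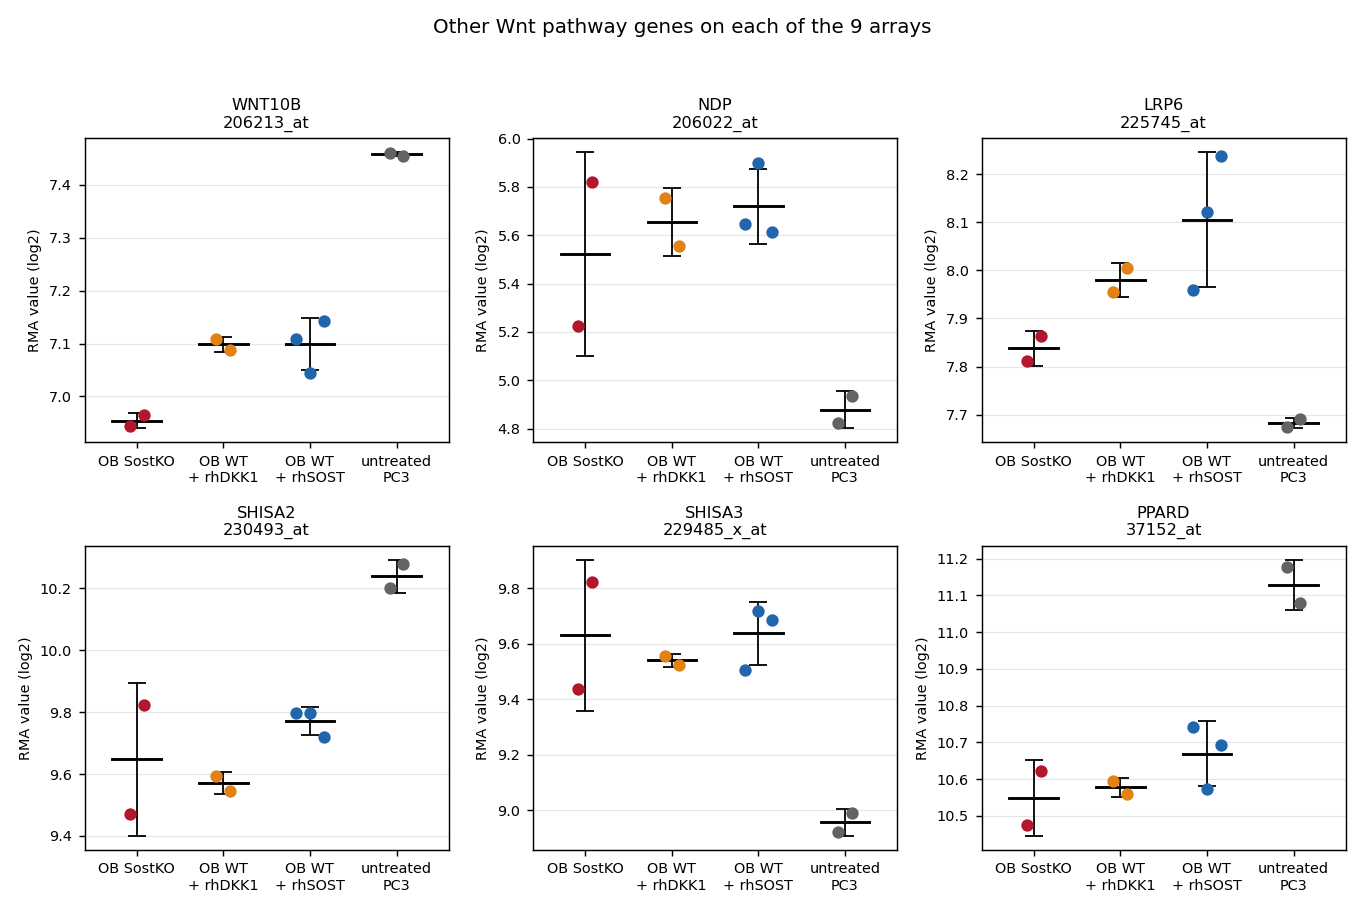
RMA value (log2, vertical axis, not starting at 0) of 6 Wnt pathway genes outside the Frizzled family. Each point is 1 of the 9 arrays, the thick line is the group mean and the bar is 1 SD. The 6 genes were chosen from those that limma called against untreated PC3. Co-culture arrays lie above both untreated arrays for NDP, LRP6 and SHISA3 and below them for WNT10B, SHISA2 and PPARD. Among all kept probe sets, 13.1% have all 7 co-culture arrays above and 10.6% have them below.

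Of the β-catenin targets and feedback genes, all 10 with a probe set of their own were kept and 0 rose. Limma called 1, 1 and 2 of the 10 as lower in OB SostKO, in OB WT + rhDKK1 and in OB WT + rhSOST, where 0.718%, 0.721% and 1.32% of all kept probe sets fell. PPARD, a nuclear receptor, was read on the brightest of its 4 kept probe sets, and the others are not reported here. On that probe set PPARD fell in all 3 co-cultures, by 0.58 in OB SostKO (limma adjusted p = 0.032), by 0.55 in OB WT + rhDKK1 (adjusted p = 0.033) and by 0.46 in OB WT + rhSOST (adjusted p = 0.029). MYC, a growth regulator, fell in OB WT + rhSOST by 0.42 (adjusted p = 0.029) and had -0.43 and -0.42 in OB SostKO and OB WT + rhDKK1 (adjusted p = 0.053 and 0.053). The list's median was -0.14, -0.15 and -0.15. AXIN2 had 0.02, 0.16 and 0.17 (adjusted p = 0.93, 0.42 and 0.35) and NKD2 0.32, 0.23 and 0.30 (adjusted p = 0.15, 0.26 and 0.12). CCND1 was also positive without passing. NKD1, LEF1, SP5 and BMP4 were negative without passing, and CD44 had both signs. By other measures, a Wnt reporter and active β-catenin staining, the paper reports increases in PC3 cells with wild type or Sost knockout osteoblasts.

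The remaining lists gave 0 calls with limma in the 3 comparisons. Of genes that control Frizzled turnover, 6 of 10 were kept, with 0, 1 and 2 at an unadjusted p under 0.05 in OB SostKO, in OB WT + rhDKK1 and in OB WT + rhSOST, where 18.9%, 19% and 20.9% of all kept probe sets had such a p. RNF43, a ubiquitin ligase that removes Frizzled proteins from the cell surface, had log2 fold changes of 0.13, 0.09 and 0.22 (adjusted p = 0.36, 0.52 and 0.099). USP8, which takes ubiquitin off Frizzled proteins, had 0.10, 0.19 and 0.20 (adjusted p = 0.53, 0.26 and 0.19). Among Dishevelled and planar polarity genes, 14 of 16 were kept, with 5 of the 14 at an unadjusted p under 0.05 in each comparison, against the same 18.9%, 19% and 20.9% of all kept probe sets. Of these, DVL3 and CELSR3 were lower in OB SostKO (-0.76 and -0.29, adjusted p = 0.15 and 0.18). DVL3 was also lower in OB WT + rhDKK1 (-0.62, adjusted p = 0.22), and the rest were higher. PRICKLE1, a core polarity gene, had log2 fold changes of 0.78, 0.72 and 0.58 (adjusted p = 0.079, 0.093 and 0.10). DAAM1, a formin that binds Dishevelled, had 0.40, 0.36 and 0.34 (adjusted p = 0.15, 0.18 and 0.14). WLS, which carries Wnt to the cell surface, differed by 0.02, 0.04 and 0.01. SMO, the Hedgehog pathway relative of the Frizzled family, had -0.25, -0.30 and -0.16 (adjusted p = 0.33, 0.25 and 0.48), with an unadjusted p under 0.05 in OB WT + rhDKK1.

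The pathway calls also rested on single arrays. Without one array at a time, SHISA3 kept its call in 4 of 9 fits, WNT10B in 2 for OB SostKO and 3 for OB WT + rhSOST, NDP, SHISA2 and MYC in 3 each, LRP6 in 1, and PPARD in 1, 3 and 3 for OB SostKO, for OB WT + rhDKK1 and for OB WT + rhSOST. Each of these calls was lost without untreated array 1 and without untreated array 2. In OB SostKO, WNT10B kept its call only without rhSOST array 1 or 3, and PPARD only without rhSOST array 3. The OB WT + rhDKK1 calls of SHISA2 and PPARD, and the OB WT + rhSOST calls of WNT10B, NDP, MYC and PPARD, were also lost without rhDKK1 array 1 or 2 or rhSOST array 1 or 2. SHISA3 was also lost without rhDKK1 array 1 or 2 or rhSOST array 2, and LRP6 kept its call only without rhSOST array 1. The highest adjusted p was 0.127 for WNT10B and 0.163 for PPARD in OB SostKO, 0.204 for SHISA2 and 0.198 for PPARD in OB WT + rhDKK1, and 0.155 for WNT10B, 0.215 for NDP, 0.211 for LRP6, 0.168 for SHISA3, 0.121 for MYC and 0.183 for PPARD in OB WT + rhSOST. The log2 fold changes moved less: without one array they stayed between -0.51 and -0.49 for WNT10B in OB SostKO, -0.38 and -0.33 for WNT10B, 0.75 and 0.90 for NDP, 0.36 and 0.50 for LRP6, 0.64 and 0.74 for SHISA3 and -0.47 and -0.38 for MYC in OB WT + rhSOST, and -0.71 and -0.63 for SHISA2 in OB WT + rhDKK1. PPARD stayed between -0.65 and -0.51 in OB SostKO, -0.60 and -0.50 in OB WT + rhDKK1, and -0.51 and -0.41 in OB WT + rhSOST. After cyclic loess, NDP and LRP6 did not pass either (adjusted p = 0.052 and 0.059).

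The genes most like each of 3 Frizzled probe sets over the 9 arrays, among 28244 kept probe sets with 1 symbol, were found by Pearson r as a description. For FZD8/MIR4683 224325_at they were ANKRD26 (r = 0.990), CDH11 (0.988) and CYB5B (0.987). For FZD3 239082_at they were AFG3L2 (0.986), NTPCR (0.985) and MTRFR (0.985), and for FZD4 218665_at SMIM3 (0.994), ANKRD26 (0.978) and HOXB13 (0.975). The arrays share a step between co-cultures and untreated PC3, which any gene with such a step follows.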

How the data were processed

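Total RNA of PC3 cells in 4 groups was measured on 9 arrays, grouped by the sample labels, which name them biological replicates. The deposited values are log2 signals that the authors made with RMA, which corrects background, equalizes array distributions and summarizes probe sets; the version is not given in the sources used here. Symbols came from the platform annotation, updated through RefSeq.

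The fit used limma 3.58.1 (R 4.3.3). From 54675 probe sets, 33970 were kept, with 62 controls removed. A mean per group was fitted with lmFit and eBayes, two-sided. Every Frizzled probe set was named, those annotated jointly to FZD8 and MIR4683 under both names. Of each pathway list, called members were named or, where there were none, the 2 with the smallest F-test p, by the brightest probe set. Further members of the β-catenin target list and of the Dishevelled and planar polarity list were named to show both directions. BGLAP, WNT3, WNT3A, TCF7 and PORCN had no probe set of their own here and were not analysed, and some listed genes are not reported here. Members and lists were chosen with earlier results of these data known. The procedure was tested on simulated data. Alternatives were other filters, cyclic loess, gene summaries, 2-group fits, a replicate block, array weights, other priors, thresholds and tests, and leaving out each array.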

Additional observations from a re-analysis of the deposited data

How the results depend on the processing

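Among single Frizzled log2 fold changes, 607 of 699 alternative values kept their direction and side of the threshold, 71 lost their call, 9 gained one and 12 changed sign. In the order OB SostKO, then OB WT + rhDKK1, then OB WT + rhSOST against untreated PC3, where 2, 2 and 4 Frizzled probe sets passed, leaving out 1 array gave 0 to 3, 0 to 2 and 0 to 3, and the F test 0 to 2. Replicate numbers were not treated as pairs: same-numbered arrays deviated together with r from -0.54 to 0.43, over 0.1 in 4 of 12 pairs. Between groups of 2 arrays both replicate numbers give the same r by construction. The 12 values are therefore not separate and cannot settle whether the arrays were paired. The fit with the replicate block gave 0, 0 and 2. Fitting only the 2 groups compared gave 0, 0 and 1, with fewer arrays for the spread. Without a filter OB SostKO gave 0, and with array weights 0, while OB WT + rhSOST then gave 7. The brightest probe set per gene gave 1 and 1 for OB SostKO and OB WT + rhDKK1, the gene mean 1 for OB SostKO and 2 for OB WT + rhSOST, and cyclic loess 2 for OB WT + rhSOST. A 2-fold threshold gave 0, 0 and 0. An adjusted p under 0.1 gave 7 for OB WT + rhSOST. An unadjusted p under 0.05 gave 8, 10 and 11, where 18.9%, 19% and 20.9% of all kept probe sets had such a p. Tukey's comparisons gave 4 and 5 for OB SostKO and OB WT + rhDKK1 unadjusted and 0 in all 3 after adjustment. The methods' paired test by replicate number gave 0 for OB WT + rhDKK1 unadjusted and 0 in all 3 after adjustment. In the direct comparisons the unadjusted counts were 1 for OB SostKO against OB WT + rhSOST (limma, Tukey and the paired test) and 1 for OB SostKO against OB WT + rhDKK1 (limma and Tukey). Limma gave an unadjusted p under 0.05 for 3.43% and 0.854% of all kept probe sets in these comparisons. The F test, with 0 calls, gave 2 with the 60th percentile filter, 1 with the brightest probe set per gene, 2 with a trend and robust prior, 1 with array weights and 2 at an adjusted p under 0.1. Beside limma's unadjusted p, shares over all features under these settings are not given here. The Frizzled counts therefore show only how far the calls move. Except where fewer arrays or another threshold made the change, the cause was not tested.

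The 12 changes of sign were all of differences near 0. On FZD8/MIR4683 227405_s_at, OB WT + rhDKK1 minus OB WT + rhSOST turned to -0.041 with the replicate block and ranged from -0.085 to 0.10 without 1 array, OB SostKO minus OB WT + rhSOST from -0.14 to 0.11, and OB SostKO minus OB WT + rhDKK1 from -0.15 to 0.10. On 224325_at OB SostKO minus OB WT + rhSOST ranged from -0.23 to 0.024 and OB SostKO minus OB WT + rhDKK1 from -0.16 to 0.10. FZD7 203706_s_at in OB WT + rhDKK1 ranged from -0.059 to 0.029.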
